A study of Mus musculus with 6 samples.

Results

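The Msx and Dlx genes are homeobox genes that pattern the head and limbs of the embryo and act again in osteoblasts and teeth. They were followed here in adult bone of 3 skeletal sites, as all probe sets of the mouse array whose annotation names Msx1, Msx2, Dlx1, Dlx2, Dlx3, Dlx4, Dlx5 or Dlx6. The 8 genes, of 18194 genes named on the array, were read by 12 probe sets, with 2 each for Msx1, Msx2, Dlx3 and Dlx4 and 1 each for the others. No member's probe set carried the symbol of a second gene. Each of the 8 genes was called higher in mandible than in ulna at 1 probe set or more, where 9.36% of all tested probe sets were. However, the calls of Dlx1 and Dlx6 were lost when 1 of some arrays was left out. With no moderation of variances, 4 of the 8 genes kept a call, namely Msx2, Dlx1, Dlx2 and Dlx5. Msx1, Msx2 and Dlx5 were called higher in calvaria than in ulna, where 6.90% of all were. Of these, Dlx5 kept its call under all 16 alternatives of the fit, while Msx1 and Msx2 lost theirs under some. A dim second probe set of Msx1 lay lower in calvaria than in ulna. Most members entered the test through their mandible signal, so these counts are a description.

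As described by the authors, RNA was taken from calvaria with its sutures removed, from mandible with its teeth left in and from ulna freed of soft tissue and epiphyses, on 2 arrays per site. Even so, the summed signal of skeletal muscle genes was 47629 to 47991 in ulna and 40834 to 41193 in mandible, against 5385 to 5525 in calvaria. All bones came from untreated, skeletally mature male mice of 24 to 26 g, with no genetic change named for any site, and the methods name the strain as Black CD57. The mice of this pilot were divided into a pair of groups, but how many gave RNA to an array is not given in the sources used here. Whether arrays of a site differ by animal or by handling alone cannot be told apart. The p-values cover only the spread between these arrays, drawn in part from all tested probe sets, and with 2 arrays per site precision is low. The values are MAS5 signal intensities, which the authors deposited on a linear scale. The probes of different genes bind with different strength, so signal is compared between sites and never between genes.

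Both families encode transcription factors that bind DNA through a homeodomain. Msx1 and Msx2 are induced by bone morphogenetic proteins (BMPs) in mesenchyme and keep many precursor cells from differentiating. The Dlx genes lie on the chromosomes as pairs, Dlx1 beside Dlx2, Dlx3 beside Dlx4 and Dlx5 beside Dlx6, and members of a pair share enhancers. In the embryonic jaw their nested domains set the upper and the lower part apart, with Dlx5 and Dlx6 specific to the lower. Dlx3 and Dlx5 also act in osteoblasts, and Msx1, Msx2, Dlx1, Dlx2 and Dlx3 in teeth.

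Of the 12 probe sets, 10 lay above the median of the array on at least 2 of the 6 arrays and were tested. The medians of the arrays ran from 30.6 to 33.6. The second probe sets of Msx1 (1417127_at) and Msx2 (1438351_at) were below this limit and are given by signal alone. The probe sets of Dlx1 and Dlx2 and the second ones of Dlx3 (1422037_at) and Dlx4 (1443591_at) passed only through their mandible arrays. Msx2 (1449559_at), Dlx4 (1420595_at) and Dlx6 had 1 calvaria array above the median and also needed a mandible array to pass, so that 7 of the 10 tested would have been left out without mandible. A count over tested members is for that reason a description and not support for a higher signal in mandible. Log2 differences are of the signal divided by the array median, fitted with limma over all 25233 tested probe sets, and calls needed both a 2-fold change and an adjusted p under 0.05. Where a site lay below the array median on both arrays, its signal was near background and the size of the log2 difference is not exact.

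**Figure D1:**
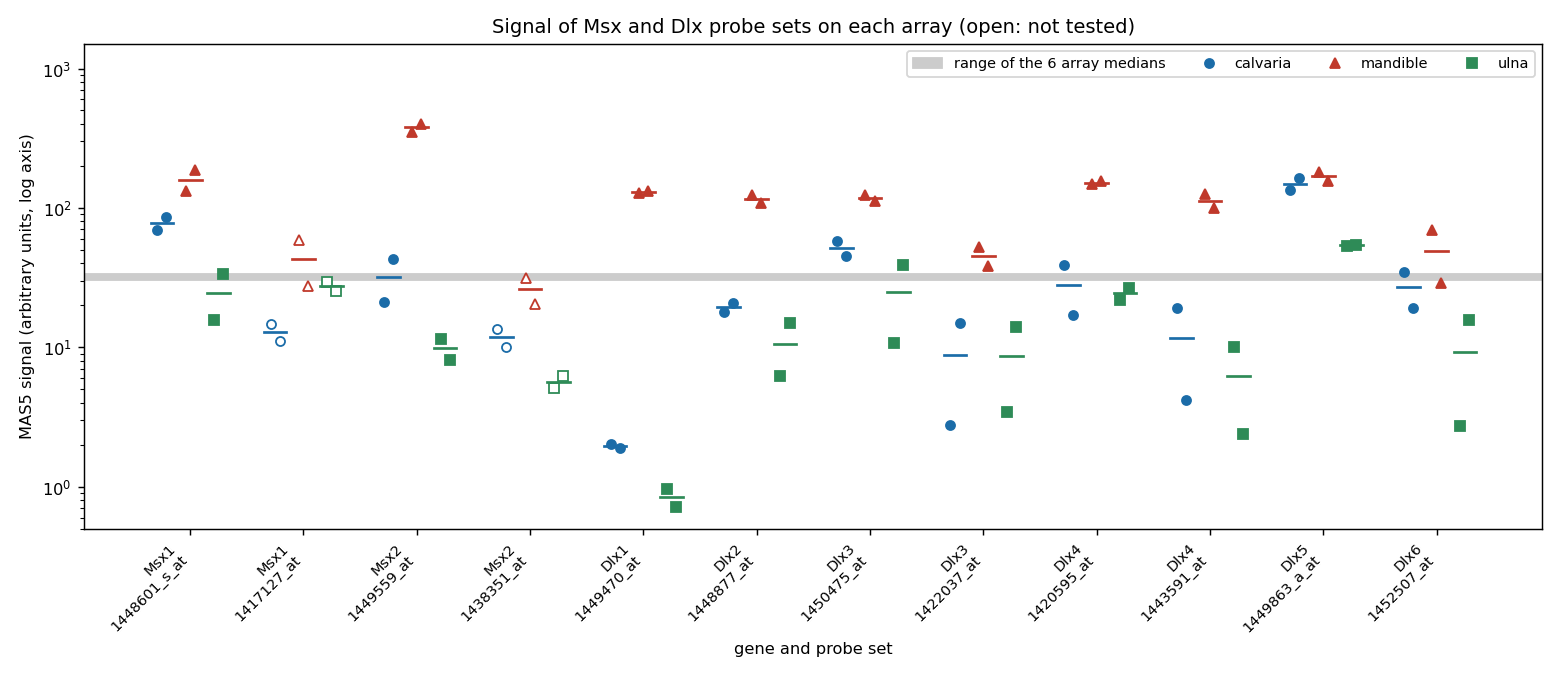
Signal of the 12 probe sets (MAS5, logarithmic axis) for Msx and Dlx genes, with 1 point per array (2 each of calvaria, mandible and ulna), a bar at the mean of a site and a grey band for the range of the 6 array medians. Open points mark the probe sets that were not tested. Msx2 (1449559_at) reaches a mean of 377.8 in mandible, and Dlx5 is the gene with all 6 arrays above the band.

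Msx1, whose loss in mice arrests tooth growth and cleaves the palate, was read most brightly by probe set 1448601_s_at, whose suffix marks probes shared by several transcripts. Its signal was 69.3 and 85.6 on the calvaria arrays, 131.5 and 187.0 on the mandible arrays and 15.7 and 33.7 on the ulna arrays. The 3 sites did not overlap and ran from ulna through calvaria to mandible. Calvaria exceeded ulna in Msx1 by 1.67 on the log2 scale (SE 0.35, adjusted p = 0.00465 in limma). Mandible exceeded ulna by 2.65 (adjusted p = 0.00013), a call lost with no moderation of variances (0.0557). The call of calvaria was lost with no trend of the variance (adjusted p = 0.0534) or no moderation (0.156), of a range from 0.000618 to 0.156 over 16 alternatives. Its value was 1.10 without ulna replicate 1 and 2.23 without ulna replicate 2. Between mandible and calvaria the difference of 0.99 did not pass (95% interval 0.21 to 1.76, adjusted p = 0.0713). In whole bone, fewer cells of a type and less RNA per cell cannot be told apart.

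The second probe set of Msx1, 1417127_at, gave another order. Its signal was 14.6 and 11.0 in calvaria, 58.4 and 27.5 in mandible and 29.5 and 25.5 in ulna. Both calvaria arrays lay below both ulna arrays here, against the direction of the first probe set, while mandible and ulna overlapped. Of its 6 values, 1 lay above the array median. Fitted without the filter on signal, its log2 difference between calvaria and ulna was -1.19 (adjusted p = 0.196).

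Msx2, a regulator of skull ossification that is also expressed in tooth epithelium and mesenchyme, was read most brightly by 1449559_at. The signal was 352.9 and 402.7 in mandible, 21.2 and 42.7 in calvaria and 11.5 and 8.14 in ulna. No sites overlapped, and in calvaria 1 array lay above its median and the other below. The difference was 5.17 between mandible and ulna (SE 0.37, adjusted p = 1.16e-06) and 3.61 between mandible and calvaria (adjusted p = 5.14e-05). The mandible arrays lay 11.3-fold above the array median, a ratio that does not rest on the dim signal of ulna.

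Between calvaria and ulna, Msx2 differed by 1.56 (95% interval 0.75 to 2.37, adjusted p = 0.00827). Of 16 alternatives, this call was lost with only the 4 arrays of the comparison (adjusted p = 0.0907) and with no moderation of variances (0.145). It was also lost without calvaria replicate 2, the higher of the pair, where the difference was 1.06. The second probe set of Msx2, 1438351_at, lay below the array median on all 6 arrays. It read 13.6 and 9.97 in calvaria, 31.6 and 20.5 in mandible and 5.14 and 6.21 in ulna, in the same order of sites as the first.

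The 250 bases before the start of Msx1, Msx2 and Dlx2 are shown because these genes were called higher in mandible than in ulna and are the members whose upstream window in RefSeq (GRCm38.p6) ends at the edge of the gene. Windows were found for 4 of the 8 members, and that of Dlx1 does not end at the edge of its gene. Capitals mark matches on either strand to the motif CCAAT, to the Sp factor motif GGGCGG, to the homeodomain core motifs TAATTG or else TAATTA, or to the start site motif TATAAA.
Msx1, chr5:37824586-37824835, minus strand: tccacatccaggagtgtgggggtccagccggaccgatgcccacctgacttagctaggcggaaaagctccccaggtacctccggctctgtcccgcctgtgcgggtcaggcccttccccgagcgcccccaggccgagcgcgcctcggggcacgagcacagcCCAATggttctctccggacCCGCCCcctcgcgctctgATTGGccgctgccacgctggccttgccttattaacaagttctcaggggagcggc
Msx2, chr13:53472781-53473030, minus strand: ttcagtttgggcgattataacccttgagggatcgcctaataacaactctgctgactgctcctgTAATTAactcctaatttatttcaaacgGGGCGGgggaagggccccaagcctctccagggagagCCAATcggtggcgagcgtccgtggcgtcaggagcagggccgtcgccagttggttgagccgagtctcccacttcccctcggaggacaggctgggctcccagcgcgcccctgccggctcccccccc
Dlx2, chr2:71546755-71547004, minus strand: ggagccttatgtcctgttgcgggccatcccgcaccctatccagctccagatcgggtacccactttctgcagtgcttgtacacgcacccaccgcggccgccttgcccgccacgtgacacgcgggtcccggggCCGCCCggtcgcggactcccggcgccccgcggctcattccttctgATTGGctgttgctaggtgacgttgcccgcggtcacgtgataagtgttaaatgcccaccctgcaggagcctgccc

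All 3 windows hold CCAAT, as 33.8% of 32851 windows do, and GGGCGG, as 32.7% do. In Msx1 CCAAT occurs 2 times, beginning 91 and 54 bases before the start, with GGGCGG between them at 72. Msx2 alone holds TAATTA, 187 bases before the start, which 4.84% of all windows hold. None of the 3 holds TAATTG (7.17% of all windows) or TATAAA (12.4%). No matches overlap. The share of G and C is 68.0% in Msx1, 61.6% in Msx2 and 66.4% in Dlx2, against a median of 52.4% over all windows. These are matches of letters only, and no binding was measured.

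Dlx1 and Dlx2 serve the upper jaw, the molars and the interneurons of the forebrain. Dlx1 (1449470_at) read 127.2 and 132.6 in mandible, 2.01 and 1.90 in calvaria and 0.962 and 0.720 in ulna. The mandible arrays stood apart, and the signal of the other sites was far below the array median. The difference between mandible and ulna was 7.17, with a wide error (SE 1.98, 95% interval 2.80 to 11.54, adjusted p = 0.013). The arrays of each site lay close together at Dlx1, and this error came mainly from the trend of variance on signal in the fit. With no trend the adjusted p in limma was 0.000571, and with no moderation it was 0.00464. Mandible lay 3.89-fold above the array median. The call between mandible and ulna was lost when either mandible array was left out (adjusted p = 0.191 and 0.195, of a range from 2.40e-05 to 0.195 over 16 alternatives).

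Between mandible and calvaria Dlx1 missed the threshold narrowly in the fit with a trend of variance on signal (6.01, adjusted p = 0.052), and 8 of 16 alternatives called it (range 8.70e-05 to 0.364), those without ulna replicate 1 (0.0105) or 2 (0.00875) among them. Between calvaria and ulna the difference of 1.16 did not pass (95% interval -3.21 to 5.52, adjusted p = 0.704), although the arrays did not overlap, and 1 alternative called it (no trend of variance, adjusted p = 0.0146, of a range from 0.0146 to 0.844).

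Dlx2 (1448877_at) read 122.9 and 109.3 in mandible, 18.1 and 20.7 in calvaria and 6.23 and 14.8 in ulna. Mandible was again the site above the array median. The difference was 3.47 between mandible and ulna (SE 0.51, adjusted p = 0.000249) and 2.54 between mandible and calvaria (adjusted p = 0.00434). The former was 2.84 without ulna replicate 1 and 4.11 without ulna replicate 2, and was called in both. The latter was lost without mandible replicate 1 (2.47, adjusted p = 0.0603, of a range from 0.000122 to 0.106 over 15 alternatives). Calvaria and ulna differed by 0.93, which did not pass (95% interval -0.19 to 2.05, adjusted p = 0.199). It was 0.30 without ulna replicate 1 and, called, 1.57 without ulna replicate 2 (adjusted p = 0.0418, of a range from 0.0418 to 0.654).

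Dlx3, a gene of hair, enamel and bone that is mutated in tricho-dento-osseous syndrome, had a signal at 1450475_at of 124.0 and 112.9 in mandible, 58.1 and 45.3 in calvaria and 10.7 and 39.3 in ulna. The sites did not overlap, but the ulna arrays lay far apart, with 1 below and 1 above the array median. Dlx3 was higher in mandible than in ulna by 2.41 (SE 0.49, adjusted p = 0.00242), a call lost with no moderation of variances (0.128). This difference was 1.47 without ulna replicate 1 and 3.36 without ulna replicate 2. The difference of 1.25 between calvaria and ulna did not pass (95% interval 0.16 to 2.34, adjusted p = 0.0818). It was called at 2.20 without ulna replicate 2 (adjusted p = 0.00122) and was 0.30 without ulna replicate 1 (adjusted p = 0.497), the lowest and highest p over 16 alternatives. The 1.16 between mandible and calvaria did not pass either (95% interval 0.07 to 2.26, adjusted p = 0.123), although it was called without ulna replicate 1 (0.00614) or 2 (0.0132), of a range from 0.00323 to 0.444.

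The second probe set of Dlx3, 1422037_at, read 52.6 and 38.0 in mandible, 2.79 and 14.9 in calvaria and 3.43 and 14.0 in ulna. Mandible was highest here too, and calvaria and ulna overlapped. None of its comparisons passed, with differences of 2.57 between mandible and ulna (adjusted p = 0.0894), 2.75 between mandible and calvaria (0.112) and -0.18 between calvaria and ulna (0.926). Without calvaria replicate 1 the last became 1.03, and the first was called (adjusted p = 0.0321, of a range from 0.0252 to 0.302).

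Dlx4, the partner of Dlx3 and a gene of the branchial arches and placenta, read 148.4 and 155.2 in mandible, 38.8 and 17.1 in calvaria and 21.9 and 26.8 in ulna at 1420595_at. The mandible arrays lay close together and above all others, while calvaria and ulna overlapped. The difference was 2.53 between mandible and ulna (SE 0.39, adjusted p = 0.000346) and 2.52 between mandible and calvaria (adjusted p = 0.000839). The latter ran from 1.93 to 3.11 when a calvaria array was left out. With no moderation of variances both calls were lost (adjusted p = 0.0557 and 0.0994). Between calvaria and ulna the difference was 0.01 (95% interval -0.84 to 0.86, adjusted p = 0.988), and it changed sign without calvaria replicate 1 (-0.58).

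At the second probe set of Dlx4, 1443591_at, the signal was 124.9 and 100.4 in mandible, 19.1 and 4.21 in calvaria and 10.1 and 2.39 in ulna. It gave the same calls, at 4.39 between mandible and ulna (adjusted p = 0.003) and 3.60 between mandible and calvaria (adjusted p = 0.0182). The former was 3.36 without ulna replicate 2 and 5.42 without ulna replicate 1. Its call was lost with no moderation of variances (adjusted p = 0.0992). The call against calvaria was lost without calvaria replicate 2 (2.51, adjusted p = 0.0916) or without mandible replicate 1 (0.150) or 2 (0.105), of a range from 0.00115 to 0.207 over 15 alternatives.

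Dlx5, which acts in osteoblasts and in the lower jaw of the embryo, had the least spread between arrays of a site in the fit (1449863_a_at, SE 0.18). Its signal was 134.6 and 163.0 in calvaria, 180.8 and 157.1 in mandible and 53.5 and 54.5 in ulna. Both skull sites lay well above ulna and overlapped with each other. The difference from ulna was 1.38 for calvaria (adjusted p = 0.000163) and 1.53 for mandible (adjusted p = 4.48e-05), a ratio of 2.60 and 2.88, and both were called under all 16 alternatives. Mandible and calvaria differed by 0.15, with a 95% interval from -0.24 to 0.53 (adjusted p = 0.611), so that ratios from 0.845 to 1.45 lay within the error.

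Dlx6, the neighbour of Dlx5 with a like role in the lower jaw, was read near the array median by 1452507_at. Its signal was 69.3 and 28.9 in mandible, 34.8 and 19.1 in calvaria and 2.73 and 15.7 in ulna. Both skull sites lay above ulna and overlapped with each other, as for Dlx5, but arrays of a site lay up to several-fold apart. The difference of 2.65 between mandible and ulna was called (SE 0.86, adjusted p = 0.0287). It was lost without mandible replicate 1 (2.03, adjusted p = 0.212) or ulna replicate 1 (1.38, adjusted p = 0.131), and was 3.93 without ulna replicate 2, of a range from 0.00437 to 0.213 over 15 alternatives. The 1.90 between calvaria and ulna did not pass (95% interval -0.01 to 3.81, adjusted p = 0.126) but was called at 3.17 without ulna replicate 2 (adjusted p = 0.0201), and was 0.63 without ulna replicate 1 (0.541). Mandible and calvaria differed by 0.75 (95% interval -1.15 to 2.66, adjusted p = 0.588).

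**Figure D2:**
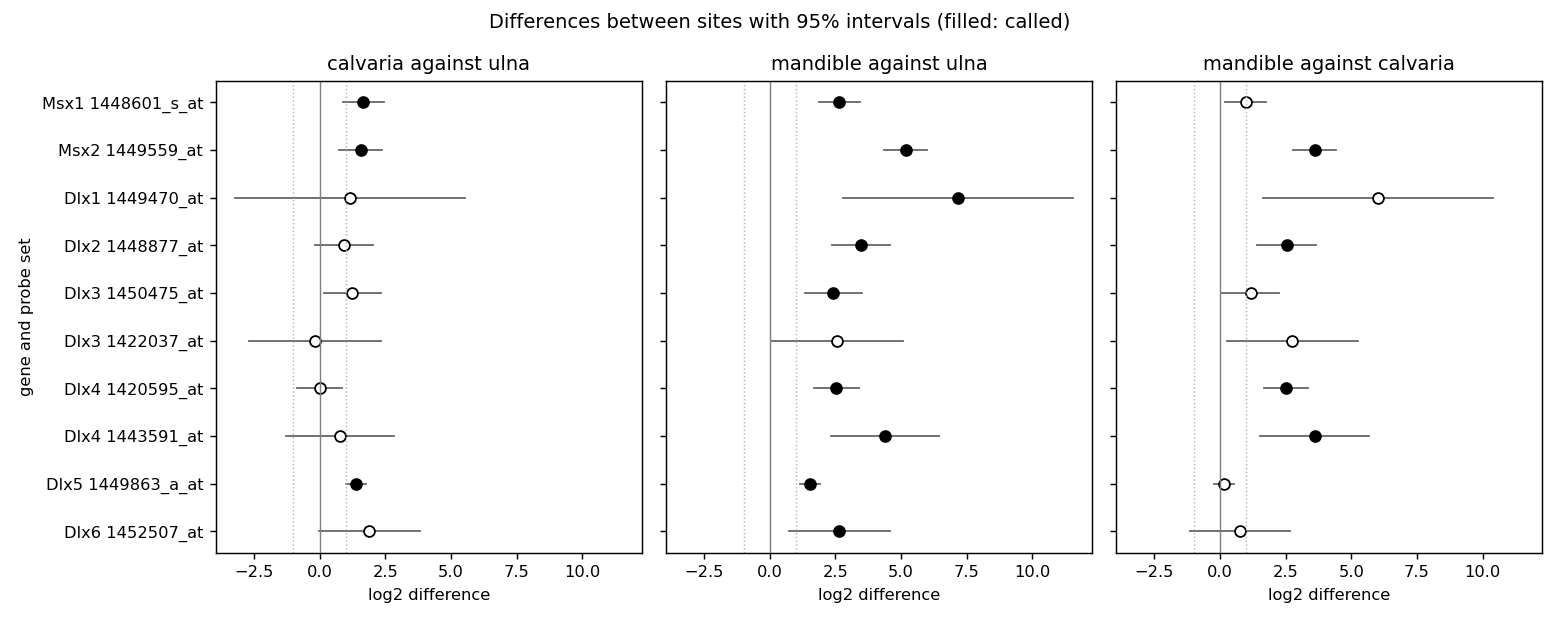
Log2 difference between sites for the 10 tested probe sets, with 95% intervals from the limma fit of all 6 arrays, filled points for calls and dotted lines at a 2-fold change. Dlx5 has the narrowest interval, and its difference between mandible and calvaria is 0.15, while Dlx1 has the widest.

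Over the 10 tested probe sets, 3 were called higher in calvaria than in ulna, where 6.90% of all tested probe sets were, and 0 were called lower, where 4.95% were. Between mandible and ulna 9 were called higher against 9.36% of all, and 0 lower against 11.3%. Between mandible and calvaria 4 were called higher against 4.09% of all, and 0 lower against 3.48%. The median log2 difference of the 10 was 1.20, 2.65 and 2.53 in these comparisons, beside -0.08, -0.13 and -0.09 over all tested probe sets. With no filter on signal all 12 were fitted, and 3, 9 and 5 were called higher. The comparisons share arrays, 2 at a time, and are not independent of each other.

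The ulna arrays differed from each other at many of the members. The signal divided by the array median was higher on ulna replicate 2 than on replicate 1 at 8 of the 12 probe sets, against 52.9% of all tested probe sets. The median standard deviation between the ulna arrays was 0.567 over the 12 on the log2 scale and 0.138 over all tested. It was 0.301 over the 12 in calvaria and 0.179 in mandible. The sets compared are unlike, since the 12 include probe sets that did not pass the filter on signal. Most of the 12 also lay below the array median on both ulna arrays. Dlx5, the member above it on both, read 53.5 and 54.5 in ulna. Without ulna replicate 2, 6 of the 10 tested were called higher in calvaria than in ulna in place of 3, those added being Dlx2, Dlx3 (1450475_at) and Dlx6, which without ulna replicate 1 were at 0.30, 0.30 and 0.63. A cause for the spread was not tested.

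**Figure D3:**
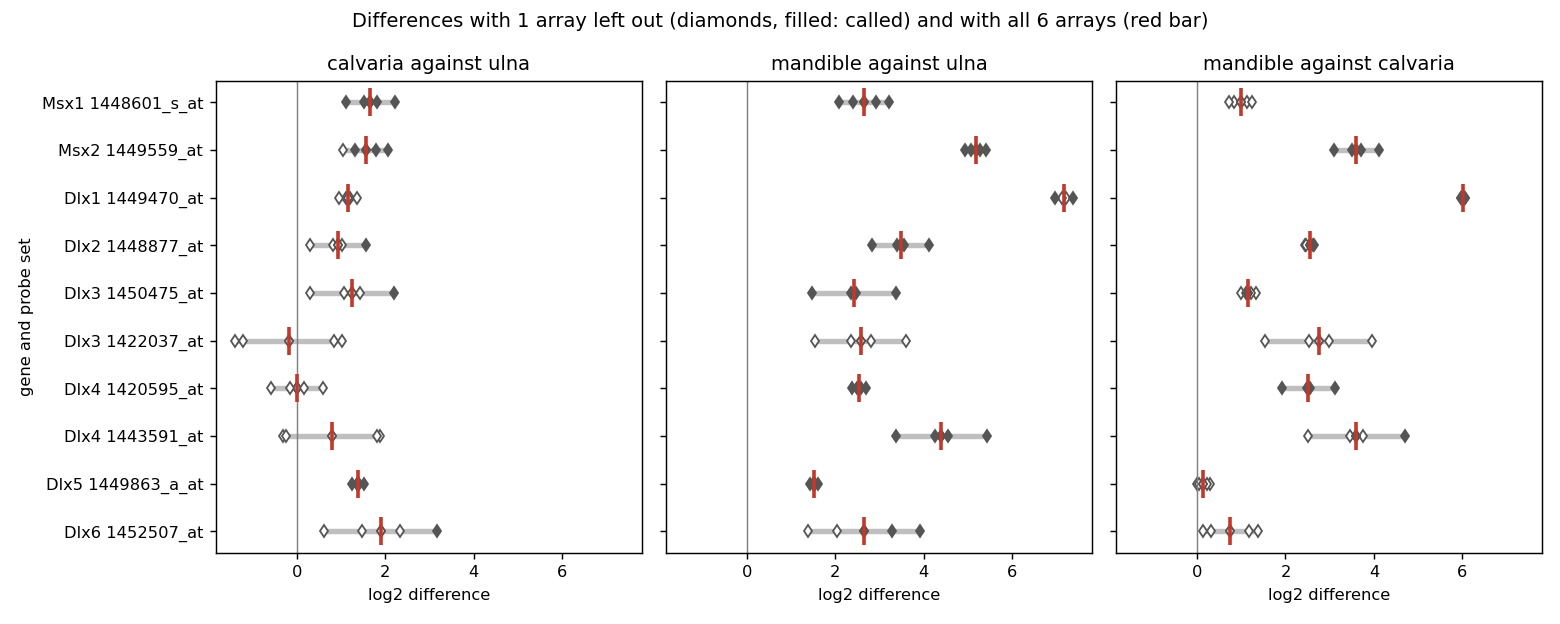
Log2 difference of the 10 tested probe sets with each of the 6 arrays left out in turn (diamonds, filled where called) and with all arrays (red bar). Dlx5 moves least between calvaria and ulna, from 1.24 to 1.52, while Dlx6 runs from 0.63 to 3.17, and between mandible and ulna every value stays above 0.

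The tissue around the members differed between sites as well. The tooth list, led by the dentine gene Dspp and the enamel genes Amtn, Amelx and Odam, had a summed signal of 64529 to 65748 in mandible, 67.2 to 85.2 in calvaria and 79.7 to 92.7 in ulna. All 9 tooth genes tested were called higher in mandible than in ulna and in calvaria (median 9.19 and 9.83). Of all tested probe sets, 9.36% and 4.09% were. In calvaria and ulna no tooth gene lay above the array median. Each of the 9 therefore passed the filter only through its mandible arrays, and their count is a description. The 10 epithelium genes, with Krt14, Krt5, Krt17 and Dsp among them, summed to 5680.2 to 5849 in mandible, 226.5 to 230.3 in calvaria and 259.3 to 289.4 in ulna. Of them, 9 were called higher in mandible than in each other site, while between calvaria and ulna 3 epithelium genes and 2 tooth genes were called lower in calvaria. Several Msx and Dlx genes are known to be expressed in teeth and their epithelium, and the part of these tissues in the mandible values was not tested.

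Osteoblast and osteocyte genes had a summed signal of 36364 to 39616 in calvaria, 37753 to 38838 in mandible and 10663 to 10879 in ulna, over 10 of 15 genes with a named probe set. The signal of Dlx5 likewise overlapped between both skull sites and was lower in ulna, and the part of osteoblast share in it was not tested. Of the 10, 7 were called higher in calvaria than in ulna and 6 in mandible than in ulna, among them Col1a1 (3.04 and 2.91) and Col1a2 (1.92 and 1.64). These collagen genes made up most of the sum in calvaria (means 12672 and 14570) and in mandible (11892 and 12326). Sost went the other way between calvaria and ulna (-0.53, adjusted p = 0.00106 in limma), short of a 2-fold change. Atf4 differed from ulna by 0.26 in calvaria and -0.04 in mandible and was not called. Alpl, the phosphatase of mineralising cells, and Phex, a protease gene of osteocytes and odontoblasts, were the 2 called higher in mandible than in calvaria (1.51 and 1.76). The defining markers of bone were thus present at every site.

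Other tissues also differed between the sites. The meninges list summed to 3802.6 to 4446 in calvaria, 2423.2 to 2615 in mandible and 594.9 to 600.2 in ulna. Most of the sum in mandible was Ogn (1958 ± 117 SD), a matrix gene that bone also expresses, while Ptgds was at 45.7 ± 4.12 there and 35.4 ± 8.28 in ulna. Of 7 meninges genes tested, 4 were called higher in calvaria than in ulna, 3 in mandible than in ulna, and 1 higher and 2 lower in mandible than in calvaria. In Ptgds, a prostaglandin synthase gene, there was a log2 difference of 5.48 between calvaria and ulna, and in the claudin gene Cldn11 of 3.53. Cldn11 was also called higher in mandible than in ulna (2.42). Crabp2 of the same list was brightest in mandible, with a mean of 284.8, against 21.6 in calvaria and 5.35 in ulna. It was called higher in mandible than in ulna (5.81) and in calvaria (3.73), and higher in calvaria than in ulna (2.09). The neuron list summed to 875.4 to 893.5 in calvaria, 287.3 to 317.5 in mandible and 169.9 to 179.0 in ulna, and Slc32a1, Nefm and Elavl4 lay below the array median on all 6 arrays. Of 6 neuron genes tested, 5 were called higher in calvaria than in ulna and 3 higher and 1 lower in mandible than in ulna. Against calvaria 1 was higher in mandible, namely Stmn2 (1.44, and 2.24 against ulna), and 3 were lower. These were the synaptic gene Snap25 (-9.28, from a mandible mean of 0.678, far below the array median), Syt1 (-3.224) and Nefl (-3.125). Dlx1 and Dlx2, which forebrain neurons use, lay below the array median in calvaria, though both calvaria arrays of Dlx2 (18.1 and 20.7) exceeded those of ulna (6.23 and 14.8). Any part of neurons in these values was not tested. Skeletal muscle genes summed to 5385 to 5525 in calvaria, 40834 to 41193 in mandible and 47629 to 47991 in ulna, with all 10 called lower in calvaria than in ulna, 2 lower in mandible than in ulna and 10 higher in mandible than in calvaria. Erythroid genes summed to 5730.5 to 6132 in calvaria, 3293.6 to 3694 in mandible and 9045 to 9357 in ulna, and of 6 tested 2 were called lower in calvaria than in ulna, 6 in mandible than in ulna and 2 in mandible than in calvaria. What these tissues add to the members' signal was not tested.

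**Figure D4:**
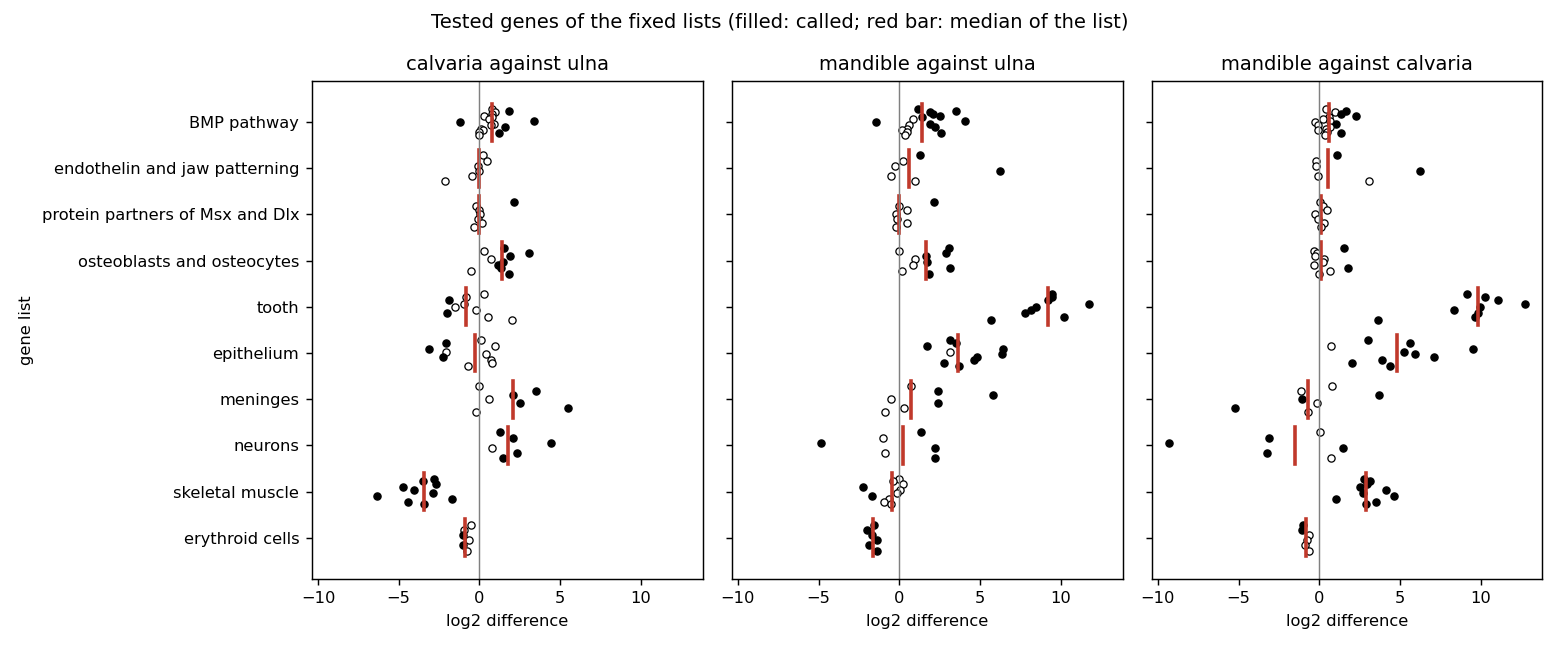
Log2 difference of each tested gene in 10 lists for the 3 comparisons, filled where called and open elsewhere, and with the median of each list as a red bar. The tooth median lies at 9.19 between mandible and ulna, the skeletal muscle median at -3.46 between calvaria and ulna, and the BMP median at 1.38 between mandible and ulna.

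The BMP pathway lies upstream of Msx and Dlx genes in many tissues. Of 20 genes listed for it, 17 were tested, and 10 were called higher and 1 lower in mandible than in ulna (median 1.38, beside -0.13 for all tested probe sets). Bambi, a decoy receptor and a target of the pathway, differed by 3.52 (adjusted p = 7.59e-09), with a mean signal of 1481 ± 9.14 (SD, n = 2 arrays) in mandible and 120.0 ± 21.9 in ulna. The inhibitory Smad gene Smad6 differed by 2.58 (adjusted p = 1.07e-06), the ligand gene Bmp7 by 2.53 (adjusted p = 0.000742) and Chrd, which encodes the BMP antagonist chordin, by 4.06 (adjusted p = 0.0013) from a signal in ulna below the array median. Grem1, another antagonist and the 1 gene called lower, was named after its values were seen (-1.47, adjusted p = 0.0124).

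Between calvaria and ulna 4 BMP genes were called higher and 1 lower, and 12 did not pass (median 0.76). The higher ones were Bambi (1.84), Smad6 (1.21), Chrd (3.41) and Id3 (1.59), an inhibitor of differentiation that BMPs induce. Between mandible and calvaria 5 were called higher and none lower (median 0.61), namely Bmp4 (1.35), Bmp7 (2.27), Smad6 (1.37), Id1 (1.01) and Bambi (1.68). Id1, Id3 and Bmp4 were named after their values were seen.

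In the embryonic jaw, endothelin signalling turns on Dlx5 and Dlx6, and these turn on Hand2. Of 13 genes of this list, 6 were tested, since 2 had no named probe set and 5 lay below the filter. Hand2 had a mean signal of 458.2 ± 5.41 in mandible, 6.37 ± 3.33 in calvaria and 6.34 ± 4.17 in ulna, with log2 differences of 6.24 and 6.23 against ulna and calvaria (adjusted p = 1.41e-05 and 4.14e-05). Hand2 passed the filter on signal only through its mandible arrays. The arrays of Hand2 in calvaria lay near those in ulna and those of Dlx5 near mandible, which was not tested as a difference between the genes. Ece1, the enzyme that activates endothelin, was higher in mandible by 1.31 and 1.10. No gene of this list was called between calvaria and ulna.

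Of 8 genes for proteins that bind Msx or Dlx factors, 7 were tested. Maged1, whose protein binds Dlx5 and Msx2, was the 1 called, higher by 2.13 in calvaria and by 2.17 in mandible than in ulna (adjusted p = 1.58e-07 and 1.29e-07). Its mean signal was 431.0 ± 1.88 in calvaria, 455.6 ± 26.9 in mandible and 93.3 ± 2.11 in ulna. Between mandible and calvaria the difference of 0.04 did not pass (adjusted p = 0.851).

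Transcripts that overlap the Dlx pairs were read as well, and were named after their values were seen. Dlx4os, an antisense RNA beside Dlx4, read 74.2 and 94.0 in mandible, 10.8 and 7.63 in calvaria and 8.24 and 10.8 in ulna. It was higher in mandible than in ulna by 3.03 (adjusted p = 0.0022) and than in calvaria by 3.16 (adjusted p = 0.00363), with the same calls as Dlx4. Dlx4os passed the filter on signal only through its mandible arrays, so these like calls are a description. Dlx6os1, the antisense RNA over Dlx6 that is also called Evf, read 84.8 and 113.7 in mandible, 38.4 and 51.3 in calvaria and 37.6 and 11.0 in ulna. It was called between mandible and ulna (2.15, adjusted p = 0.00474). Dlx1as and Dlx6os2 lay below the filter.

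Of the 20 nearest genes with a probe set on the sides of the Dlx pairs, Msx1 and Msx2, in their order on GRCm38.p6, 14 were tested. Stx18, near Msx1 and read by probes that may also bind other transcripts, was called higher in mandible than in ulna (1.38) and in calvaria (1.01), and Itga6, near Dlx2, in mandible than in calvaria (1.11). Pdk2 and Itga6 were lower in calvaria than in ulna (-1.07 and -1.12).

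The genes whose pattern over the 6 arrays was most like that of a member were found by the Euclidean distance between log2 values centred on the mean of each gene, among 12325 other genes. Nearest to Dlx5 were the metallothionein gene Mt1 (distance 0.144), the T-box gene Tbx2 (0.206) and the cadherin gene Fat1 (0.208). Nearest to Msx1 were the Wnt receptor gene Fzd3 (0.409), Kcnk2 and Dact1, and to Msx2 the retinoic acid binding gene Crabp1 (0.765), Bnc1 and the ligand gene Shh. Dlx1 was nearest to Calb1 (0.677), Chil4 and Dynap, and Dlx2 to Car12 (0.813), Moxd1 and Krt76. Dlx3 was nearest to Elmod1 (0.567), Lamc3 and Lce1h, Dlx4 to the BMP gene Bmp7 (0.549), D630045J12Rik and Id4, and Dlx6 to Creb5 (0.724), Efna2 and Cd320. With 2 arrays per site, such nearness is a description of these arrays only.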

How the data were processed

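Bone RNA was labelled in 1 cycle and hybridised to Affymetrix Mouse Genome 430 2.0 arrays. Per the labels the authors computed the deposited signal intensity with MAS5, and the 2% trimmed mean of each array is 100. Of 45101 probe sets, 34958 had 1 gene symbol in the platform annotation, 932 several and 9211 none, and 64 controls were dropped.

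Signals were scaled by the median of their array, log2 was taken with no pseudocount, and probe sets above the median on at least 2 of 6 arrays were tested (25233, or 55.9%, for 12326 genes). In limma 3.58.1 (R 4.3.3) 1 mean was estimated per site, and eBayes moderated the variances with a trend on signal (3 residual and 7.67 prior degrees of freedom), and p-values were adjusted by Benjamini and Hochberg over all tested probe sets of a comparison. The fit was tested on simulated data. The methods' analysis of variance was not used as the main test, since each site has 2 arrays.

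The members, lists and tests were chosen with earlier results of these data known. Named are all members, up to 4 called genes of each of 10 lists with the largest change in any comparison, the 3 genes most like each called member, and neighbouring genes. A list gene was read by its tested probe set with the highest mean. Some list genes had no probe set with that symbol and were not analysed here. Motifs were searched in the 250 bases before each RefSeq start. Alternatives changed the scaling, the filter, the pseudocount, the variance model, the arrays in the fit, the replicate block, the call rule and the probe set of a list gene. Python 3.11.15 and matplotlib 3.10.9 made the plots.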

Additional observations from a re-analysis of the deposited data

How the results depend on the processing

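Dlx5 kept both calls against ulna under all 16 alternatives of the fit, and so did Msx2 between mandible and ulna. With unscaled signal, with another scaling or with no trend of the variance, the number of Msx and Dlx probe sets called higher stayed within 1.5 times the main 3 (calvaria against ulna), 9 (mandible against ulna) and 4 (mandible against calvaria). With no trend of the variance, Msx1 lost its call between calvaria and ulna (adjusted p = 0.0534) and Dlx1 gained one (0.0146), so an equal count did not mean the same probe sets. With no moderation of variances these counts were 1, 4 and 1, and with the 4 arrays of a comparison alone the last was 7. Leaving out 1 array gave 2 to 6, 7 to 10 and 2 to 6 called. No probe set was called lower in any setting. With the replicate number as a block the counts were 3, 9 and 4. The deviations of same-numbered arrays correlated at -0.0123 to 0.0058 over 25233 probe sets. A correlation over all probe sets cannot tell whether such arrays deviate together at the members. Nor can it tell whether they share animals, which is not given in the sources used here. Between calvaria and ulna some uncalled differences changed sign when 1 array was left out. Dlx3 (1422037_at) became 1.03 without calvaria replicate 1 and 0.85 without ulna replicate 2 (lowest -1.39). Dlx4 (1420595_at) became -0.58 without calvaria replicate 1 and -0.14 without ulna replicate 1 (highest 0.60), and Dlx4 (1443591_at) -0.30 without calvaria replicate 1 and -0.24 without ulna replicate 2 (highest 1.88). The cause was not tested. Of the 30 differences of tested members, other changes came to 24 calls lost and 20 gained over all alternatives. On the values as deposited, the median of all probe sets between mandible and ulna was -0.02 in place of -0.13. Over all probe sets, no moderation gave 1566, 3455 and 723 calls and the stricter filter, which tested 13069, gave 1783, 3107 and 1189, against 2991, 5224 and 1909. Taking the probe set with the largest difference changed the osteoblast and osteocyte genes called higher in mandible than in calvaria from 2 to 1 and the neuron genes from 1 to 0. Signals below the array median limit the precision at Dlx1, Dlx6 and the second probe sets of Msx1, Msx2 and Dlx3.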
